A study of Mus musculus with 12 samples.

Results

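Imprinted genes are expressed mainly from the allele inherited from the mother or mainly from the allele inherited from the father, according to methylation marks set in the germ line. In the Dlk1-Dio3 domain of mouse chromosome 12 the maternal allele makes the noncoding RNAs Meg3, Rian and Mirg, which carry snoRNAs and a large cluster of miRNAs, and the paternal allele makes the mRNAs of Dlk1, Rtl1 and Dio3. On mouse chromosome 7 the maternal allele makes the noncoding RNA H19 and the growth inhibitor Cdkn1c, and the paternal allele makes the growth factor Igf2. Many of these genes act on fetal and placental growth and are expressed at lower levels in most adult tissues. None of the values given here separates the alleles.

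Described here are 10 imprinted genes, Meg3, Rian, Mirg, Dlk1, H19, Igf2, Cdkn1c, Grb10, Peg3 and Mest, of 23150 genes in the data. They were taken by name and chosen by the measured difference between Sema3E and IgG libraries in Meg3, which was unlike in the 2 tissues, so the Sema3E differences of these genes are a description and carry no test. The libraries were bulk RNA-seq of ovarian stromal tissue (OST) and granulosa cells (GCs), the cells that surround the oocyte and form the corpus luteum after ovulation. All came from immature wild-type (WT) mice that were superovulated and were collected 8 h after human chorionic gonadotropin (hCG), the hormone given in place of the luteinizing hormone surge. Before hCG, one ovary received 2 µg of recombinant Sema3E, a secreted ligand of Plexin-D1, in 10 µL, and the contralateral ovary received 2 µg of IgG in the same volume of buffered saline with albumin. The groups were OST Sema3E, OST IgG, GC Sema3E and GC IgG, with 3 libraries each, and the GCs or the OST of 1 ovary made 1 replicate.

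GCs were released by puncturing the follicles, and OST is all that was left, so neither is pure. The summed level of 8 granulosa markers was 5816 to 13498 TPM (transcript levels scaled for length and for the library total) in OST libraries and 6170 to 13167 TPM in GC libraries. The highest OST value was that of IgG replicate 3 and the lowest GC value that of IgG replicate 1. The remaining libraries did not overlap, at 5816 to 7729 TPM in OST and 8410 to 13167 TPM in GCs. Of the 8 markers, 2 were called higher and 3 lower in OST. OST had higher levels of all 6 fibroblast markers (sums of 1038 to 1402 TPM in OST and 29.8 to 94.0 TPM in GCs), all 6 mural markers and all 6 endothelial markers, with no defining marker at 0 in all libraries of a tissue. The GC libraries held 45460 to 196498 TPM of 5 erythroid genes, against 2612 to 6369 TPM in OST. OST IgG replicate 3 had a theca marker sum of 847 TPM against 4689 to 6636 TPM in the other OST libraries. Its oocyte marker sum was 1114 TPM against 232 to 396 TPM. This library stood apart on the first principal component of OST, at 89.9 against −27.5 to −9.68 in the others. GC IgG replicate 1 stood apart in the same way, at 61.0 against −29.7 to 4.33, with a macrophage marker sum of 2009 TPM against 150 to 457 TPM. Values are bulk levels, in which fewer cells of a type and less RNA per cell cannot be told apart.

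On GRCm38, by the gene models of GENCODE M21, Meg3 lies at chr12:109541001-109571726, Rian at chr12:109603940-109661716 and Mirg at chr12:109729764-109749460, all on the plus strand, and Dlk1 at chr12:109452823-109463336, also on the plus strand, with its start at −88.2 kb from that of Meg3. H19 (chr7:142575529-142578143), Igf2 (chr7:142650766-142666816) and Cdkn1c (chr7:143458339-143461050) are neighbours on the minus strand. Peg3 lies farther off at chr7:6703892-6730431 on the minus strand, Grb10 at chr11:11930508-12038683 on the minus strand and Mest at chr6:30723547-30748465 on the plus strand. Igf2 overlaps the antisense gene Igf2os, and Mest overlaps the antisense gene Copg2. As it is not given whether reads were counted by strand, these pairs cannot be told apart with certainty.

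The noncoding RNAs are hosts of small RNAs. From Dlk1 to Dio3, RefSeq (GRCm38.p6) places 114 mature miRNAs of 61 genes with 104 distinct seeds, of which 3 mature miRNAs lie in exons of Meg3, 6 in introns of Rian and 26 in Mirg, 8 of these in its exons. Rian also holds 13 snoRNA genes. The mature miRNAs shown are those of Meg3 and examples from the other hosts, because the RNAs measured below are their hosts. The miRNAs themselves were not measured. The seed, bases 2 to 8, is in capitals.
miR-1906: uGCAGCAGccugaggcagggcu
miR-770-5p: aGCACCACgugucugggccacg
miR-770-3p: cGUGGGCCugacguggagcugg
miR-370-3p: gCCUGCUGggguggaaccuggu
miR-453: aGGUUGCCucauagugagcuugca
miR-496a-5p: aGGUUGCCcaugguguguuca
miR-410-3p: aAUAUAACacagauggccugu
miR-675-5p: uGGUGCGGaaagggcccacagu
miR-483-5p: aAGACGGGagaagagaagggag
miR-335-5p: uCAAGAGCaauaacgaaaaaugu
The first 3 lie in Meg3, miR-370-3p in Rian, miR-453, miR-496a-5p and miR-410-3p in Mirg, miR-675-5p in an exon of H19, miR-483-5p in an intron of Igf2 and miR-335-5p in an intron of Mest. miR-453 and miR-496a-5p share the seed GGUUGCC, 1 of 10 seeds that were shared by 2 mature miRNAs of the domain.

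The annotated starts of Meg3, Rian and Dlk1 differ in sequence, and whether transcription begins at each was not measured. The RefSeq starts (250 bases before to 50 after) of Meg3 (chr12:109540746-109541045), Rian (chr12:109603695-109603994) and Dlk1 (chr12:109452573-109452872) are shown, all on the plus strand of GRCm38.p6, because their RNAs are set against each other below. Capitals mark matches to 6 motifs searched on both strands, namely CRE (TGACGTCA), the ZFP57 hexamer (TGCCGC), the GC box (GGGCGG), the CCAAT box, the C/EBP palindrome (TTGCGCAA) and the TATA box (TATAAA).
Meg3 start: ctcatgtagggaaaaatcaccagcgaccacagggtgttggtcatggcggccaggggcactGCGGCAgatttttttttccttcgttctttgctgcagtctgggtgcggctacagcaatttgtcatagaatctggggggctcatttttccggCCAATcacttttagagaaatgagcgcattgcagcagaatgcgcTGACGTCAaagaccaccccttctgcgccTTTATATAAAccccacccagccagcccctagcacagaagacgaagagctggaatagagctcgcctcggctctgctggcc
Rian start: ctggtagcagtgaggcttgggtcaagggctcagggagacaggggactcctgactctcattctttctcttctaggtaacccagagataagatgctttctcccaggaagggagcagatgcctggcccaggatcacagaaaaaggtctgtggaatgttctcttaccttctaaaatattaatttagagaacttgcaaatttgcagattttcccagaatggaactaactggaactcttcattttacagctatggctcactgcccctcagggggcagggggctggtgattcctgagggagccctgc
Dlk1 start: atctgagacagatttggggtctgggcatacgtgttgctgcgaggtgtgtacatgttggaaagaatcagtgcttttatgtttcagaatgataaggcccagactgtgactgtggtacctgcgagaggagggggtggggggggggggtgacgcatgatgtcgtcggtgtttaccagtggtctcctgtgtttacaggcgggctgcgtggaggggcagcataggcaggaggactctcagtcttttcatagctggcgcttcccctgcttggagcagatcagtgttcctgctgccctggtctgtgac
The Meg3 start shown, the first of 2 in RefSeq, held 1 CRE, 1 ZFP57 hexamer, 1 CCAAT box and 2 overlapping TATA matches, and 13 CpG dinucleotides. The other Meg3 start (chr12:109545148-109545447) held none of the 6 motifs and 1 CpG. Of 32851 RefSeq starts of this length, 1.79% held the CRE, 11.6% the ZFP57 hexamer, 37.4% the CCAAT box, 13.6% the TATA box, 35.7% the GC box and 0.183% the C/EBP palindrome, and the median number of CpG was 7. The Dlk1 start held none of the 6 motifs and 9 CpG, and the Rian start held none and 0 CpG. Among the 8 members with a RefSeq start, Peg3 was the other one with a CRE. H19 and Cdkn1c had no entry and are named only.

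Meg3 had the highest TPM of the domain's RNAs. OST Sema3E libraries had 18.3, 29.8 and 21.1 TPM, OST IgG libraries 38.6, 49.4 and 41.1 TPM, GC Sema3E libraries 74.1, 92.5 and 59.9 TPM, and GC IgG libraries 38.5, 53.0 and 51.4 TPM. All 3 OST Sema3E libraries lay below all OST IgG libraries, and all 3 GC Sema3E libraries lay above all GC IgG libraries. The log2 difference of Sema3E to IgG was −0.89 (SE 0.23) in OST and 0.65 (SE 0.23) in GCs, and the OST difference less the GC difference was −1.54 (SE 0.32). The groups failed to overlap in the same 2 directions in 762 of 16903 genes (4.51%), and that pattern is the one for which Meg3 was chosen. Over all genes the median Sema3E difference was −0.18 in OST and 0.06 in GCs. With TPM scaled by median ratios these medians were 0.02 and −0.03, and Meg3 differed by −0.67 in OST and 0.55 in GCs.

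**Figure D1:**
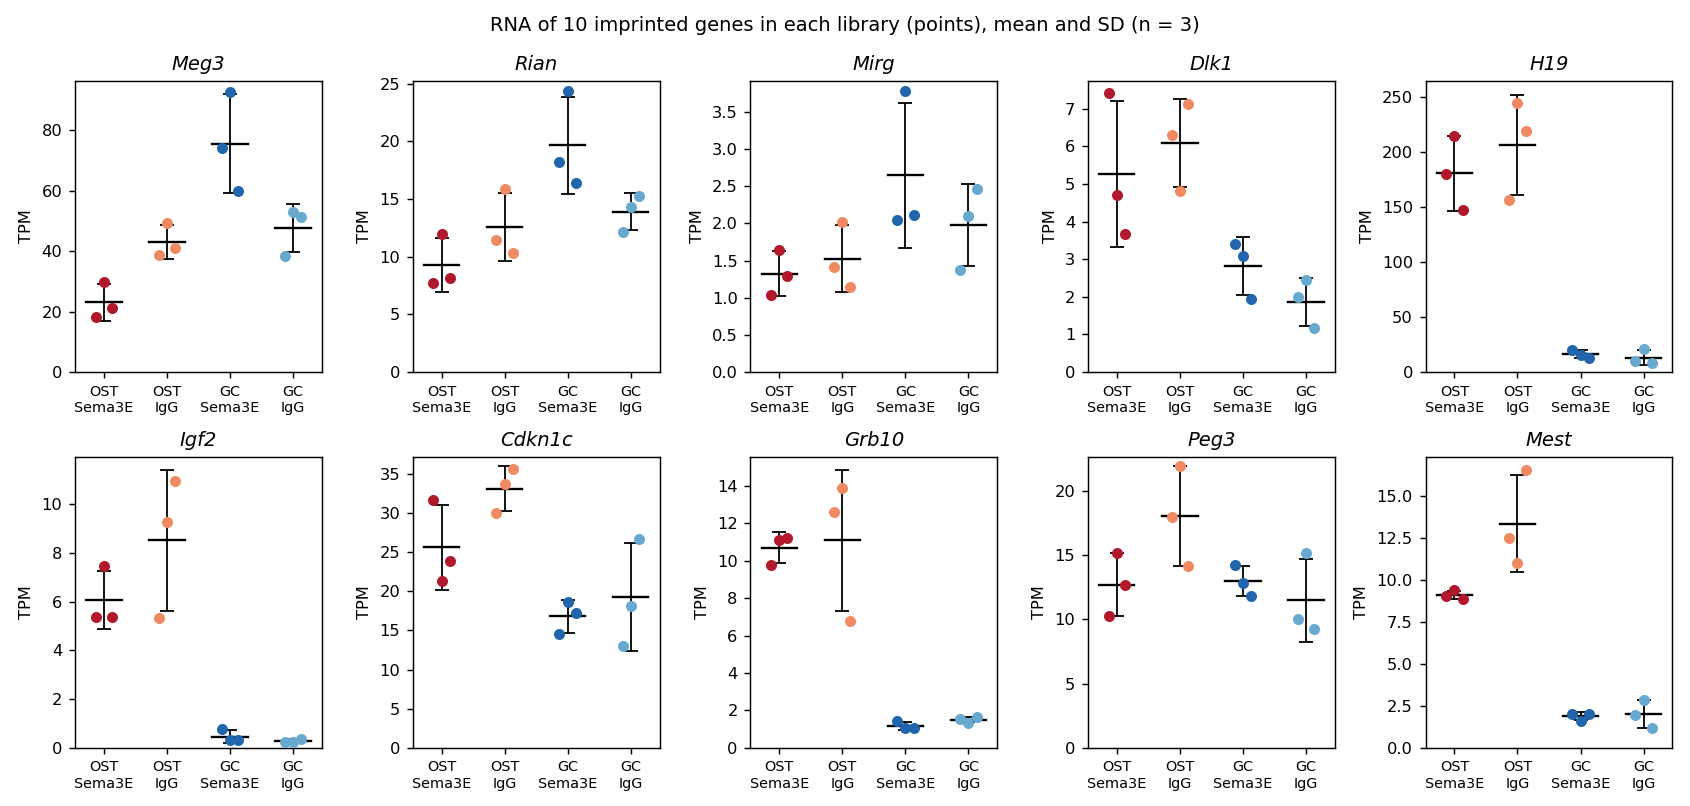
TPM of the 10 imprinted genes (1 panel each, vertical axes from 0) in the 12 libraries, by group, with points for libraries, bars for means and whiskers for SD. Meg3 lies at 18.3 to 29.8 TPM in OST Sema3E and at 59.9 to 92.5 TPM in GC Sema3E, with both IgG groups between them, and H19 lies at 147 to 244 TPM in OST and 8.55 to 21.1 TPM in GCs.

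Rian, the host of snoRNAs and of miR-370, lay in the same order. Its TPM were 7.72, 11.97 and 8.19 in OST Sema3E, 11.5, 15.9 and 10.3 in OST IgG, 18.2, 24.4 and 16.4 in GC Sema3E, and 12.1, 14.3 and 15.2 in GC IgG. The GC groups did not overlap and the OST groups did, with log2 differences of Sema3E to IgG of 0.46 (SE 0.19) in GCs and −0.40 (SE 0.25) in OST. Mirg, the most distal of these hosts, was low in every library, at 1.04, 1.64 and 1.29 TPM in OST Sema3E, 1.41, 2.02 and 1.14 TPM in OST IgG, 2.05, 3.78 and 2.11 TPM in GC Sema3E, and 1.38, 2.10 and 2.46 TPM in GC IgG. Its groups overlapped in both tissues, with log2 differences of −0.11 (SE 0.18) in OST and 0.28 (SE 0.27) in GCs.

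Counted over the members, the Sema3E and IgG libraries of OST did not overlap in Meg3 and Mest, both lower with Sema3E, a direction in which 29.9% of all 16273 genes tested in OST did not overlap (3.67% in the other). Those of GCs did not overlap in Meg3 and Rian, both higher with Sema3E, against 8.99% of all 15128 genes (2.05% in the other direction). Mest, which encodes a hydrolase-like protein of the paternal allele, had 9.01, 9.36 and 8.88 TPM in OST Sema3E and 12.5, 10.97 and 16.5 TPM in OST IgG, a log2 difference of −0.49 (SE 0.16), and −0.28 with TPM scaled by median ratios. In the other members the log2 difference ran from −0.47 (Peg3) to 0.01 (Grb10) in OST and from −0.21 (Grb10) to 0.41 (Dlk1) in GCs, where Igf2 was under 1 TPM. As these contrasts chose the genes, nothing is read from the counts. Of all genes, 0 passed an adjusted p under 0.05 in OST (0%, with 2425 or 14.9% at an unadjusted p under 0.05) and 10 in GCs (0.0661%, with 773 or 5.11%), and 0 in the difference between the tissues (0%, with 3101 or 18.3%), in limma on log2(TPM + 1).

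**Figure D2:**
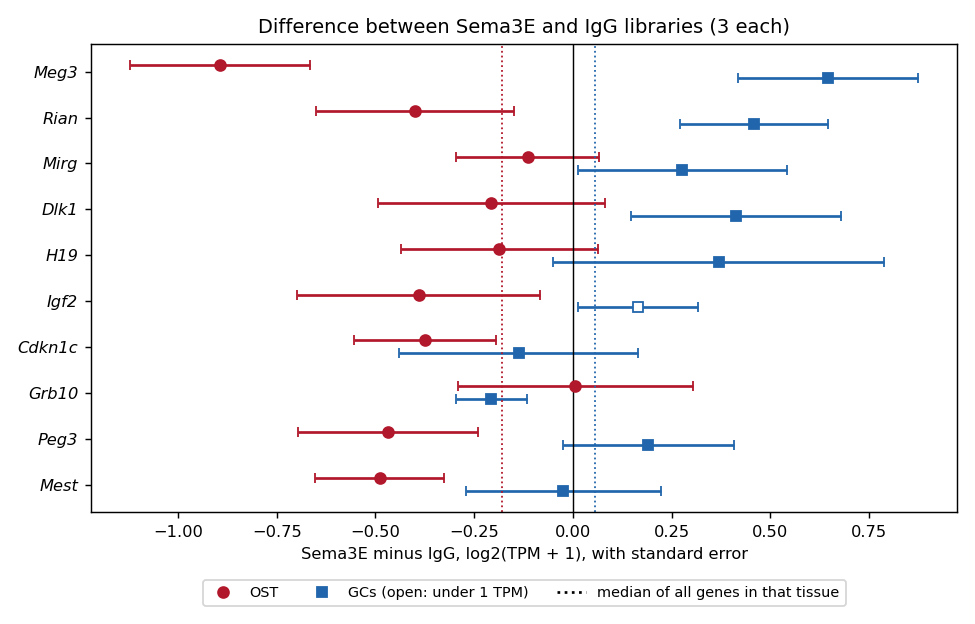
Difference of Sema3E to IgG libraries (horizontal axis, log2 of TPM + 1, with standard errors, 3 libraries a group) for each member in OST (circles) and in GCs (squares, open where all were under 1 TPM). Meg3 is farthest from 0 on both sides, at −0.89 in OST and 0.65 in GCs, while the dotted medians of all genes are at −0.18 and 0.06.

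Some other measures of these libraries also differed between Sema3E and IgG. The median level of 597 protein-coding genes with a transcript of at least 8 kb, less that of 2726 genes with none over 2 kb (log2, from the 12-library mean), was −0.56 to −0.33 in OST Sema3E and −0.07 to 0.03 in OST IgG, and 0.27 to 0.35 in GC Sema3E and 0.04 to 0.23 in GC IgG. It was thus lower with Sema3E in OST and higher with Sema3E in GCs, with no overlap, as Meg3 was, and the longest annotated transcripts were 14548 bases for Meg3, 8089 for Rian, 3822 for Mirg and 4653 for Dlk1. In OST the summed neutrophil markers were 43.4 to 174 TPM with Sema3E and 0.708 to 17.7 TPM with IgG, macrophage markers 156 to 211 and 86.3 to 153 TPM, and surface epithelium markers 292 to 337 and 211 to 259 TPM. In GCs the summed oocyte markers were 292 to 318 TPM with Sema3E and 139 to 243 TPM with IgG, and the mural markers 12.2 to 18.1 TPM with Sema3E and 18.7 to 28.6 TPM with IgG. The marker lists given are those whose Sema3E and IgG sums did not overlap in that tissue. The sums of all other marker lists overlapped, such as the mural markers in OST (636 to 717 TPM with Sema3E and 405 to 880 TPM with IgG). No marker list was without overlap in both tissues. The part of these measures in the Meg3 difference was not tested.

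The difference between the tissues, averaged over both treatments, was not used to choose the genes and was tested (limma, Benjamini-Hochberg adjustment over 16903 genes). Of the 10 members, 6 were higher and 2 lower in OST at an adjusted p under 0.05, where 30.8% of all genes were higher and 7.61% lower (38.4% in all). Of the 9 members over 1 TPM in both tissues, 5 were higher and 2 lower. The median log2 difference was 0.85 for the 10 members, 0.69 for the 9 over 1 TPM in both tissues and 0.17 for all genes. The values for all genes, here and below, were not limited to genes over 1 TPM in both tissues. Over all genes 5200 were higher and 1287 lower as deposited. With TPM scaled by median ratios 3425 of 16672 genes tested were higher and 3780 lower, with a median of −0.03. The members then came to 6 higher and 3 lower.

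**Figure D3:**
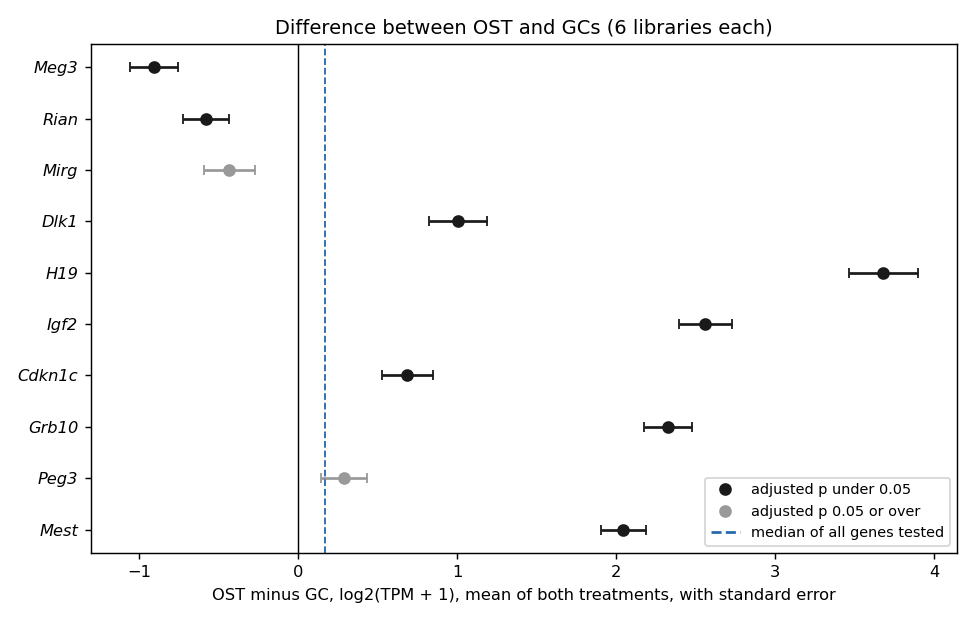
Difference of OST to GC libraries (horizontal axis, log2 of TPM + 1, mean of both treatments, with standard errors, 6 libraries a tissue) for each member, black where the adjusted p was under 0.05. H19, Igf2, Grb10 and Mest differ by 2.05 to 3.68, Meg3 and Rian by −0.91 and −0.58, and Mirg and Peg3 did not pass.

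H19, a short noncoding RNA that hosts miR-675, had the largest difference of the members on the log2(TPM + 1) scale. Its TPM were 179, 215 and 147 in OST Sema3E and 156, 244 and 219 in OST IgG, against 20.1, 15.4 and 13.03 in GC Sema3E and 9.66, 21.1 and 8.55 in GC IgG. All 6 OST libraries lay above all 6 GC libraries, with a log2 difference of 3.68 (SE 0.22, adjusted p = 6.12e-07), and mean TPM were 13.2 times as high. Igf2, the growth factor that shares enhancers with H19 in mouse mesoderm and endoderm, was at 5.33 to 10.95 TPM in OST and 0.223 to 0.755 TPM in GCs, with a log2 difference of 2.56 (SE 0.16, adjusted p = 1.04e-06). It passed the filter of 1 TPM only through OST, which favours a difference in that direction, so this difference is given as a description. Its mean TPM were 19.7 times as high in OST, a larger ratio than that of H19, and with a pseudocount of 0.1 Igf2 differed by 3.999 and H19 by 3.77. Cdkn1c, an inhibitor of cyclin-dependent kinases, overlapped between the tissues, at 21.3 to 35.7 TPM in OST and 12.96 to 26.7 TPM in GCs, with a log2 difference of 0.69 (SE 0.16, adjusted p = 0.00688). In the IgG libraries alone that of Cdkn1c was 0.81 with an adjusted p of 0.0987.

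Among members elsewhere, Grb10, an adaptor that restrains insulin and IGF receptor signalling, was at 6.77 to 13.9 TPM in OST and 1.03 to 1.62 TPM in GCs, without overlap (log2 difference 2.33, SE 0.15, adjusted p = 1.03e-06). Mest was at 8.88 to 16.5 TPM in OST and 1.18 to 2.85 TPM in GCs, also without overlap (2.05, SE 0.14, adjusted p = 1.82e-06). Dlk1, a transmembrane protein of the Notch ligand family that holds back differentiation, had 7.42, 4.72 and 3.67 TPM in OST Sema3E and 6.31, 4.82 and 7.12 TPM in OST IgG, against 3.41, 3.08 and 1.94 TPM in GC Sema3E and 2.00, 2.44 and 1.17 TPM in GC IgG. Its lowest OST library lay just above its highest GC library, and the log2 difference was 1.01 (SE 0.18, adjusted p = 0.00151), or 0.70 with an adjusted p of 0.0615 in the Sema3E libraries alone. Peg3, a zinc finger protein of the paternal allele, overlapped in part, at 10.3 to 22.0 TPM in OST and 9.22 to 15.2 TPM in GCs, and did not pass (0.29, SE 0.15, adjusted p = 0.142). Without GC IgG replicate 2 its difference was 0.39 with an adjusted p of 0.0445.

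The OST and GC libraries thus failed to overlap in 5 members, Dlk1, H19, Igf2, Grb10 and Mest, all higher in OST, against 20.4% of all genes in that direction and 2.6% in the other. Of these, Igf2 passed the filter of 1 TPM only through OST, which favours a separation in that direction. The same 5 lay beside the fibroblast, mural and endothelial markers, all 18 of which were higher in OST, with median log2 differences of 4.36, 3.75 and 2.39. All 7 surface epithelium markers (median 1.65), 3 of 6 theca markers (median 1.43) and 4 of 7 oocyte markers (median 1.19) were also higher in OST and none of these lists had a marker called lower. The part of those cells in the difference was not tested.

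The maternal RNAs of the domain ran the other way. Meg3 was lower in OST, with a log2 difference of −0.91 (SE 0.15, adjusted p = 0.000832), as was Rian, with −0.58 (SE 0.15, adjusted p = 0.00971), while Mirg differed by −0.43 (SE 0.16) and did not pass, with an adjusted p of 0.0513. Scaling by median ratios brought Mirg to −0.58 with an adjusted p of 0.012. For each of the 3 RNAs the OST and GC libraries overlapped. By treatment, Meg3 differed by −1.68 (SE 0.22) and Rian by −1.01 (SE 0.20) in the Sema3E libraries alone. In the IgG libraries alone the difference was −0.14 (SE 0.19) for Meg3 and −0.15 (SE 0.20) for Rian, each smaller than its SE. For Meg3 the gap between these values is the contrast by which it was chosen, so the split by treatment is a description and carries no test. Leaving out GC IgG replicate 1 and OST IgG replicate 3 together gave −0.96 (adjusted p = 0.00127) for Meg3 and −0.56 (adjusted p = 0.0156) for Rian. The long less short transcript measure also lay lower in OST, at −0.56 to 0.03 against 0.04 to 0.35 in GCs, and its part in the tissue difference of these RNAs was not tested.

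**Figure D4:**
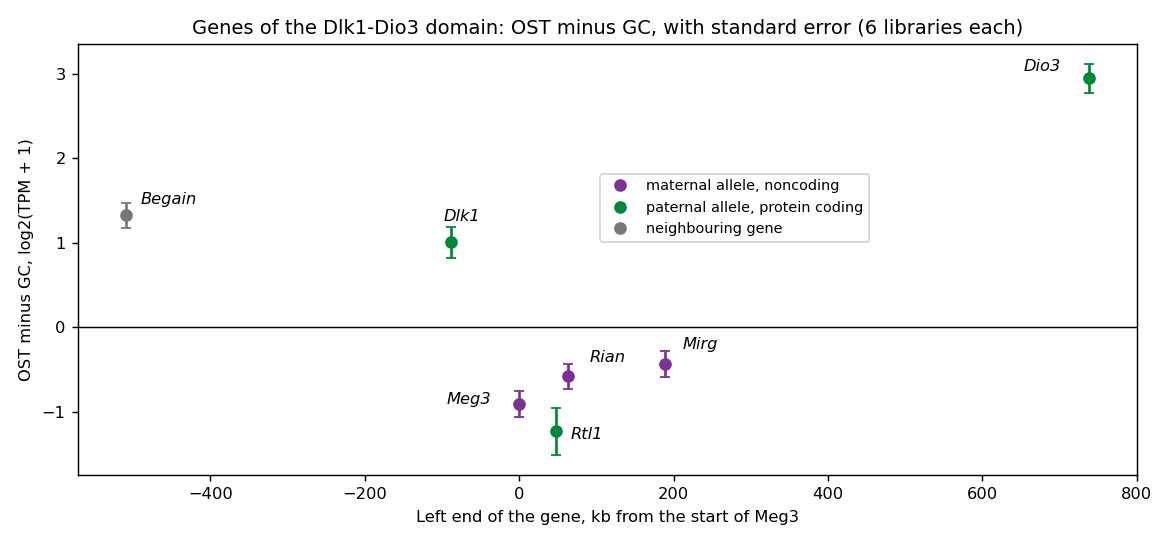
Difference of OST to GC libraries (vertical axis, log2 of TPM + 1, with standard errors, 6 libraries a tissue) for genes of the Dlk1-Dio3 domain, set out by distance of their left end from the start of Meg3 (horizontal axis, kb). Dlk1, Begain and Dio3 lie above 0, at 1.01, 1.33 and 2.94, and Meg3, Rtl1, Rian and Mirg lie below it, at −0.91, −1.23, −0.58 and −0.43.

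Of the paternal genes of the domain, Dlk1 and Dio3 were higher in OST, and the reads counted for Rtl1 were lower. Dio3, an enzyme that inactivates thyroid hormone and starts at 738 kb, was at 8.13 to 16.0 TPM in OST and 0.233 to 1.03 TPM in GCs, with a log2 difference of 2.94 (SE 0.18, adjusted p = 6.23e-07). Begain, a neighbour at −509 kb from the Meg3 start, was higher in OST by 1.33 (SE 0.15, adjusted p = 4.98e-05), although it passed the filter through OST only. Rtl1, a retrotransposon-derived gene, was at 0.142 to 2.45 TPM in OST and 2.74 to 7.75 TPM in GCs, without overlap, and differed by −1.23 (SE 0.28, adjusted p = 0.00604). Rtl1 lies antisense to maternal transcripts that hold 6 miRNA genes, and without knowing the strand its reads cannot be told apart from theirs.

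Meg3, Rian and Mirg also varied together among libraries of the same group. After the group mean was taken off log2(TPM + 1), Meg3 and Rian had a Pearson r of 0.92 over 12 libraries (permutation within groups, adjusted p = 0.00965 over 5 relations) and a Spearman rho of 0.87 (adjusted p = 0.0193), and r was 0.85 without the 2 libraries farthest from the median. For Meg3 and Mirg r was 0.85 (permutation, adjusted p = 0.0103) and rho 0.72 (adjusted p = 0.0399), with r = 0.80 without the farthest 2. For Rian and Mirg r was 0.91 (permutation, adjusted p = 0.00772) and rho 0.78 (adjusted p = 0.0193), with 0.93 without the farthest 2. Within OST and GCs these 3 values of r ran from 0.83 to 0.96. Of 16902 genes ranked by this r with Meg3, Rian was number 5 and Mirg number 31, and Dlk1 was number 13288, with r = −0.12 (permutation p = 0.774) and rho = −0.02. H19 and Igf2 had r = 0.48 (permutation, adjusted p = 0.0868) and rho = 0.57 (adjusted p = 0.0444), and r = 0.83 without the farthest 2.

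**Figure D5:**
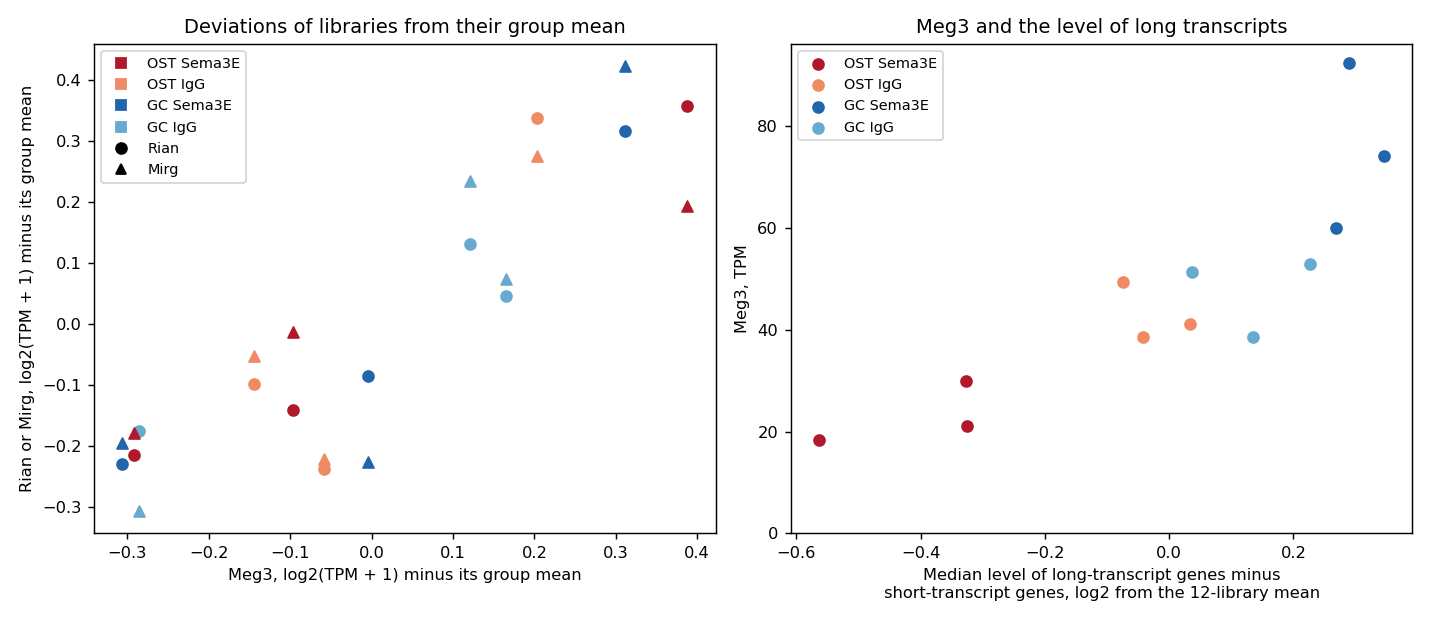
Left, deviation of Rian (circles) and Mirg (triangles) from their group means against that of Meg3, log2 of TPM + 1, for the 12 libraries. Right, Meg3 in TPM against the median level of long-transcript genes less that of short-transcript genes (log2, from the 12-library mean), where OST Sema3E libraries lie at −0.56 to −0.33 and GC Sema3E libraries at 0.27 to 0.35.

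Ratios within a library do not depend on its scaling. The permutations of these ratios exchanged all 12 libraries freely, without regard to treatment, mouse or ovary. Dlk1 stood at 19.6% ± 10.7 of the Meg3 TPM in OST and 3.88% ± 1.10 in GCs (SD, n = 6 each), without overlap (9.76% to 40.7% and 2.29% to 5.20%), with an exact two-sided permutation p of 0.00216, the smallest that 924 splits allow, and an adjusted p of 0.00866 over 4 ratios. Rian stood at 34.7% ± 6.74 of Meg3 in OST and 27.7% ± 2.47 in GCs (exact permutation p = 0.0498, adjusted p = 0.0837), and Mirg at 4.64% ± 1.32 and 3.78% ± 0.676 (exact permutation p = 0.236). Igf2 stood at 3.73% ± 0.68 of H19 in OST and 2.67% ± 1.19 in GCs (exact permutation p = 0.0628, adjusted p = 0.0837). As a description, Rian was 38.9% to 42.3% of Meg3 in OST Sema3E and 25.1% to 32.2% in OST IgG, without overlap, and 24.6% to 27.3% in GC Sema3E and 27.0% to 31.5% in GC IgG. The longest annotated transcripts were 14548 bases for Meg3, 8089 for Rian and 4653 for Dlk1. A shift that depends on transcript length would not cancel in these ratios, and its part in them was not tested.

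Over the 12 libraries, the genes with log2(TPM + 1) most like that of Meg3, of 12208 with a mean over 1 TPM, were Fat1 (Pearson r = 0.97), Zfp711 (0.96), Arid2 (0.94), Rev3l (0.94) and Cecr2 (0.94), all protein-coding, against 0.96 for Rian, 0.83 for Mirg and −0.47 for Dlk1. Fat1, an atypical cadherin, was at 8.18 to 10.7 TPM in OST Sema3E, 12.3 to 12.8 TPM in OST IgG, 15.5 to 18.7 TPM in GC Sema3E and 11.8 to 14.2 TPM in GC IgG. The longest annotated transcripts of the 5 genes ran from 4330 bases (Zfp711) to 14814 bases (Fat1). Those most like Dlk1 were Hoxa7 (0.96), Tmem102 (0.95) and Pusl1 (0.94), with longest transcripts of 1243 to 2031 bases. The long less short transcript measure had a Pearson r of 0.92 with Meg3 over the same 12 libraries. Its part in these likenesses was not tested. All points share their libraries and their scaling, and those of Meg3 include the Sema3E differences for which it was chosen.

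Of 56 other imprinted genes, 41 were tested between the tissues, and 19 were higher in OST, 3 lower and 19 did not pass, where 30.8% of all genes were higher and 7.61% lower. Of the 34 over 1 TPM in both tissues 17 were higher and 3 lower, with a median of 0.35 against 0.17 for all genes. With TPM scaled by median ratios 14 were higher and 6 lower, against 3425 and 3780 of all 16672 genes tested. Dcn, a matrix proteoglycan that is also on the fibroblast list, was higher in OST by 3.08 (SE 0.17, adjusted p = 3.15e-07), Peg12 by 2.63 (SE 0.20, adjusted p = 2.96e-06), Gatm, an enzyme of creatine synthesis, by 2.33 (SE 0.23, adjusted p = 2.43e-05) and Ndn, a growth suppressor of the paternal allele, by 1.77 (SE 0.14, adjusted p = 4.70e-06). Nap1l5, related to nucleosome assembly proteins, was at 251 to 666 TPM in OST and 485 to 748 TPM in GCs and differed by −0.80 (SE 0.19, adjusted p = 0.0065), and Ppp1r9a, which binds actin and protein phosphatase, differed by −0.41 (SE 0.10, adjusted p = 0.00879). In the IgG libraries alone Nap1l5, Ppp1r9a and Rtl1 did not pass (adjusted p = 0.435, 0.918 and 0.0987). Of the genes near H19 and Cdkn1c, Ascl2 and Phlda2 did not pass (0.27 and 0.20, adjusted p = 0.24 and 0.516), Kcnq1ot1 was under 1 TPM in all libraries, and Ins2 was not analysed here.

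Dcn and Igf2r of this list of imprinted genes also stood in other lists and were left out of the split by allele. Of 17 tested genes listed as maternal, 8 were higher in OST and 1 lower. Of 22 listed as paternal, 10 were higher and 2 lower, where 30.8% of all genes were higher and 7.61% lower. Over 1 TPM in both tissues were 14 maternal genes, 7 higher and 1 lower, and 18 paternal genes, 9 higher and 2 lower. Between Sema3E and IgG, 0 of 40 other imprinted genes tested passed in OST and 0 of 35 in GCs in limma. At an unadjusted p under 0.05, 4 were lower in OST and 2 higher in GCs. Of all genes, 14.9% in OST and 5.11% in GCs were at that p in either direction. The smallest p in OST were those of Ppp1r9a (log2 difference −0.55, SE 0.11), Gab1 (−0.63, SE 0.21) and Plagl1 (−0.92, SE 0.38), all with an adjusted p of 0.332. In GCs they were those of Plagl1 (0.38, SE 0.12, adjusted p = 0.936), Nap1l5 (0.37, SE 0.16, adjusted p = 0.971) and Zdbf2 (0.50, SE 0.17, adjusted p = 0.999).

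Igf2 and Grb10 belong to a wider system of IGF ligands, receptors and binding proteins. Of 28 genes listed for it, 22 were tested, 13 were higher in OST, 2 were lower and 7 did not pass, where 30.8% of all genes were higher and 7.61% lower. With TPM scaled by median ratios 9 were higher and 4 lower, where 3425 of all 16672 genes tested were higher and 3780 lower. Igfbp7, a binding protein of vessel walls, was at 56.9 to 101 TPM in OST and 1.28 to 5.83 TPM in GCs (4.61, SE 0.19, adjusted p = 5.13e-08), and Stc1, an inhibitor of the protease that frees IGFs from binding proteins, was higher by 4.22 (SE 0.21, adjusted p = 1.49e-07). Igfbp3 was higher by 2.49 (SE 0.23, adjusted p = 1.60e-05) and Igfbp2 by 1.35 (SE 0.12, adjusted p = 1.10e-05). The other ligand, Igf1, was at 8.90 to 19.3 TPM in OST and 3.36 to 5.65 TPM in GCs, without overlap (1.25, SE 0.14, adjusted p = 7.14e-05). The receptor Igf1r was lower in OST (−0.42, SE 0.11, adjusted p = 0.0124), and did not pass in the IgG libraries alone (adjusted p = 0.561). Igf2r, the imprinted receptor that clears Igf2, was nearly level, at 8.81 to 11.6 TPM in OST and 9.10 to 11.8 TPM in GCs (−0.08, SE 0.08, adjusted p = 0.486), and differed by −0.30 with an adjusted p of 0.0343 under scaling by median ratios.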

How the data were processed

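Bulk RNA-seq was measured in 12 libraries of OST and GCs. Reads were aligned by the authors to GRCm38 (HISAT2 2.0.5) and counted with featureCounts 1.5.0-p3, and the deposited values are TPM, for which edgeR 1.3.3 is named. Every library sums to the same total TPM, so depth is unknown, no counting error is given, and reads of erythroid or other abundant genes lower all the rest. No source used here says whether counting used strand. For all members the file's coordinates differed from those of the GENCODE M21 gene models on GRCm38. Gene identifiers were therefore looked up in GENCODE M21, and sequences were read from RefSeq (GRCm38.p6).

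The 10 members and the lists were chosen with earlier results of these data known. Differences of log2(TPM + 1) were fitted with limma (version 3.58.1, R 4.3.3; trend, robust) for genes over 1 TPM in at least 1 library, with Benjamini-Hochberg adjustment over all genes tested, and a gene was called at an adjusted p under 0.05. A pseudocount of 1 understates changes of low genes. The tissue difference is the mean over both treatments of 6 against 6 libraries, and Sema3E was set against IgG in 3 against 3 within a tissue. No source ties a replicate number to a mouse, and the correlations of same-numbered libraries were not all over 0.1, so no block was used. The fit was tested on simulated data. Genes named are the members, the 6 other imprinted genes with the smallest p between tissues and the 3 in each Sema3E contrast, listed neighbours of the domains, 4 IGF genes with Igf2r, Igf1 and Igf1r, and the 5 and 3 genes most like Meg3 and Dlk1. The long and short transcript genes, and the ranks of within-group correlations with Meg3, were chosen after seeing the data. Ratios used exact permutation tests over all libraries, which took no account of treatment, mouse or ovary. Alternatives were a pseudocount of 0.1, no filter, scaling by median ratios, no robust estimation, each library left out, each treatment alone, a replicate block, and globin and mitochondrial genes left out. The software was python 3.11.15 with pandas 2.3.3 and numpy 2.4.6.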

Additional observations from a re-analysis of the deposited data

Results flagged for a closer look

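In Meg3 every Sema3E library of OST lay below the IgG libraries and every Sema3E library of GCs lay above them, and the OST difference less the GC difference was −1.54 (log2 scale, SE 0.32). That difference was not tested, because Meg3 was chosen for it, and 4.51% of all genes showed the same pattern of groups that do not overlap. In Plagl1, a zinc finger gene of the paternal allele, the same value was −1.30 (SE 0.40), and among OST IgG libraries it had 8.00, 8.83 and 19.3 TPM, the highest in replicate 3. In Gab1, an adaptor of receptor tyrosine kinases, it was −0.78 (SE 0.21), and in Igf2bp2, an RNA-binding protein of the IGF list that was named after its values were seen, it was −0.72 (SE 0.22). For Plagl1, Gab1 and Igf2bp2 the OST difference less the GC difference did not pass in limma, with adjusted p-values of 0.199, 0.199 and 0.205.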

How the results depend on the processing

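In the IgG libraries alone 1437 of 16627 genes tested differed between the tissues (1387 higher and 50 lower in OST). They included 5 of the members, 7 of the other imprinted genes and 9 of the IGF system. The Sema3E libraries alone gave 7092 of 15698 genes tested and 8 members. Leaving out each library gave 5327 to 6913 genes, of 16243 to 16879 tested, and 8 or 9 members. In GCs the 10 genes called between Sema3E and IgG became 245 with a replicate block, 0 in one fit over all libraries and 6 to 25 when a library was left out (the count was 25 without GC IgG replicate 3, 20 on leaving out GC Sema3E replicate 2, and 6 when GC IgG replicate 1 was dropped). In OST the count was 0 to 11 when a library was left out, with 11 without OST IgG replicate 3. With a replicate block in the tissue difference, Meg3 and Rian had adjusted p-values of 0.0453 and 0.0464 and Mirg 0.0686 in limma. The members still numbered 8, where 5247 of 16903 genes tested were called. The block ended the calls of Ppp1r9a, Plagl1 and Igf1r. Signs reversed, at values that did not pass, for Peg3 (−0.040), Gab1 (−0.17), Plagl1 (−0.14) and Zdbf2 (−0.11) in the Sema3E libraries alone, and for Ascl2 (−0.078), Phlda2 (−0.050) and Igf2r (0.032) in the IgG libraries alone. The cause was not tested. Of 210 values of the members between the tissues under the alternatives, 196 kept their direction and their side of the threshold. Plagl1, at an adjusted p of 0.0498, lost its call under 14 of 21 alternatives. The Sema3E difference of Meg3 ran from −1.09 to −0.67 in OST and from 0.49 to 0.80 in GCs over all alternatives. TPM hold no depth, so the precision of low genes such as Mirg and Igf2 in GCs cannot be given.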
